A study of Macaca fascicularis with 4 samples.

Results

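The cells described here are 490 of the 10639 barcodes of a droplet single-cell RNA library from cynomolgus monkey (Macaca fascicularis) embryos at embryonic day 24 (E24, Carnegie stage 11), which is 4.61% of that library (exact binomial 95% interval 4.22 to 5.02%) out of 27626 barcodes in the whole series. A barcode was taken where it carried 1 or more UMI (unique molecular identifier, a count of 1 captured RNA molecule) of EPCAM, 1 or more UMI of FOXA1 or FOXA2, and no UMI of T, TFAP2A or POU5F1. EPCAM is an epithelial surface protein, and FOXA1 and FOXA2 are forkhead factors that open chromatin in endoderm. The excluded genes mark notochord and mesoderm progenitors (T), surface ectoderm and neural crest (TFAP2A) and pluripotent or germ cells (POU5F1). The rule was meant to find the gut endoderm, and it chose the barcodes by their own counts, so the differences below describe the chosen barcodes and carry no test.

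The series follows monkey trunk tissue from E24 to E37 in 1 library per stage, without any treatment or genotype difference. At E24 the yolk sac, the amnion, the heart with the tissue anterior to it and the posterior growth zone had been removed before dissociation. The E28, E31 and E37 libraries came from other dissections, the urogenital ridge and its surroundings. The E24 label carries a pair of sample identifiers, and the barcodes cannot be assigned to either, so there is no replicate of the E24 stage and every interval given covers counting error only.

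The gut endoderm is the inner epithelial layer that is closed into a tube during these stages. Along its length it takes on regional programmes: SOX2 is the classical factor of the foregut, CDX2 that of the midgut and hindgut, and the HOX genes are used in an order along the body axis in which higher paralogue numbers lie further towards the tail. The liver bud arises from the foregut floor and switches on genes of secreted plasma proteins, many of which the yolk sac endoderm also makes. FOXA1 and FOXA2 are used outside the gut as well. FOXA2 is a factor of the notochord and of the floor plate, the strip of cells along the ventral midline of the neural tube, and both secrete the signal SHH.

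EPCAM was found in 4566 E24 barcodes (42.9%), and FOXA1 or FOXA2 in 707 barcodes. Both conditions held in 580. Of these, 61 were dropped for a UMI of T, 22 for TFAP2A and 9 for POU5F1, some for more than 1 of them. FOXA1 was found in 367 of the 490 barcodes and FOXA2 in 258, with 135 carrying both. The 490 barcodes had a median of 10862 UMIs, against 9972 for the 10149 other E24 barcodes. A rule of detection favours deeper barcodes. Just inside the rule were 48 barcodes with 1 UMI of EPCAM and 1 UMI of FOXA1 or FOXA2, and 40 barcodes lay just outside it with 1 UMI in all of the 3 excluded genes. The doublet score of Scrublet was in its top class, set at the rate expected for this load, in 117 of the 490 barcodes (23.9%) and in 789 of the others (7.77%). In 16 of the 490 the barcode sequence also occurred in another library of the series, as it did in 251 of all 10639 E24 barcodes.

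The label of gut endoderm was checked by clustering the whole E24 library without the genes of the rule, and it held for a part of the barcodes only. In all, 325 of the 490 (66.3%, exact binomial interval 62.0 to 70.5%) lay in clusters 20 and 23. Cluster 20 was led by KYNU, FGB and AGR3, and 296 of its 430 barcodes met the rule. Cluster 23 was led by RBP4, AHSG and AFP, and 29 of its 41 barcodes met it. A further 110 (22.4%, interval 18.8 to 26.4%) lay in clusters 18 and 19. Cluster 18 was led by HCRT and TPPP3, and cluster 19 by OLIG2, TUBB3 and NKX6-1, genes of the neural tube. The last 55 (11.2%, interval 8.57 to 14.4%) were scattered over 15 clusters, 15 of them in cluster 12, which was led by FGF17, CYP26A1 and CDX4. The top Scrublet class held 58.6% of the barcodes of cluster 23 that met the rule, 23.3% of those of cluster 20, 10.9% of those of clusters 18 and 19 and 34.5% of the scattered ones. The barcodes just inside the rule were mostly not in the gut clusters: 2 of the 48 lay in cluster 20 and 18 in cluster 18. Of the 40 just outside it, 27 lay in cluster 20.

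**Figure D1:**
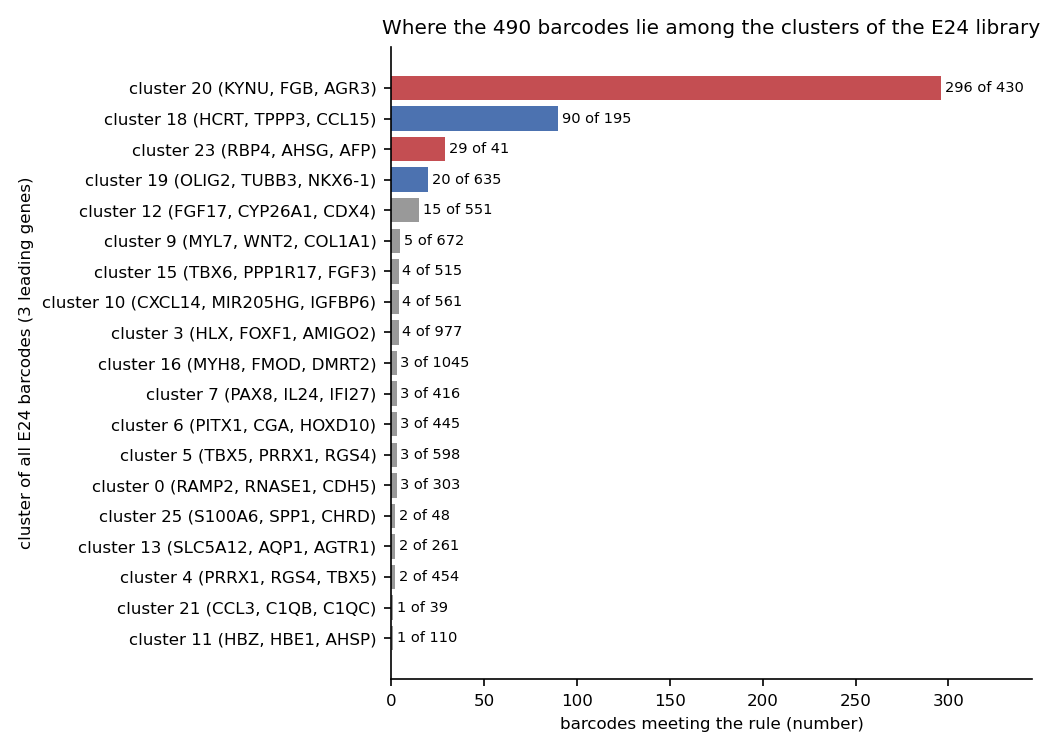
Number of barcodes meeting the rule (horizontal axis) in each cluster of the whole E24 library that holds any, named by its 3 leading genes, with the number out of all barcodes of the cluster at the end of each bar. Red bars are clusters 20 and 23 and blue bars clusters 18 and 19; cluster 20 holds 296 of its 430 barcodes, and no grey bar passes 15.

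For the comparison of levels, the UMIs of the 490 barcodes were summed and scaled to CPM (counts for each 1000000 UMIs of the set), and so were those of the 10149 others. A gene was compared where the mean of both values was at least 5 CPM, and it was called higher or lower at a ratio of 2-fold or more with the 95% counting interval on 1 side of equality. Of 10214 genes compared, 622 (6.09%) were higher and 280 (2.74%) lower in the 490 barcodes. These shares belong to the same contrast that chose the barcodes. The counts of called genes in the lists below are to be read beside them. The median log2 ratio over all genes compared was 0.02.

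The genes with the largest ratios were those of plasma proteins and of the intestinal surface. APOA1, the main protein of high-density lipoprotein, was at 1946 CPM in the 490 barcodes and 37.2 CPM in the others, 52.4-fold higher (counting interval 50.5 to 54.3). FGB, the fibrinogen beta chain, was at 1612 CPM and 26.9 CPM, 59.9-fold higher (57.5 to 62.4). SI, the sucrase-isomaltase of the intestinal brush border, was at 16.4 CPM and 0.17 CPM, 99.0-fold higher (59.7 to 174). PRSS2, a trypsinogen, was at 14.8 CPM and 0.14 CPM, 108-fold higher (62.0 to 200). Other genes with ratios among the largest were APOB, RBP4, APOA2, AHSG, FGA, APOC3, FGG, AMBP, TTR, AFP, PLG, SPINK1, SERPINA1, MEP1A and LGALS2, between 53.1-fold (SPINK1) and 70.7-fold (APOB) higher.

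These sums hid a strong concentration in few barcodes. The 29 barcodes of cluster 23 supplied 99.6% of the APOC3 UMIs of the 490, 99.5% of AHSG, 98.4% of RBP4 and 98.3% of APOB. Without these 29 barcodes AHSG and APOC3 were lower in the remaining 461 than in the other E24 barcodes, which still held the 12 barcodes of cluster 23 outside the rule, with log2 ratios of -1.63 and -1.90. APOB, RBP4, FGA and FGG then had log2 ratios of 0.44, 0.25, 0.44 and 0.86, under 2-fold, and APOA1, TTR and AFP kept ratios of 3.60, 3.96 and 3.11 on the log2 scale. Cluster 23 also supplied 85.6% of AFP, 79.2% of APOA1 and 74.6% of TTR. FGB and SPINK1 were spread more widely, with 63.5% and 58.9% of their UMIs from the 296 barcodes of cluster 20. SI came almost wholly from cluster 20 (99.0%), and so did PRSS2 (96.8%), of which 32.6% lay in 1 barcode. In shares of cells, FGB was found in 216 of the 490 (44.1%, against 3.97% of the others) and in 39.4% against 1.52% once every barcode had been thinned to 3000 UMIs. In endothelial barcodes, chosen by PECAM1 and CDH5 as cells that should lack gut genes, FGB was found in 3.28%, and in 2.19% after thinning. APOA1 was found in 49.4% of the 490 and 7.99% of the others, and in 20.8% of the endothelial barcodes, which is the background against which low APOA1 counts have to be read.

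**Figure D2:**
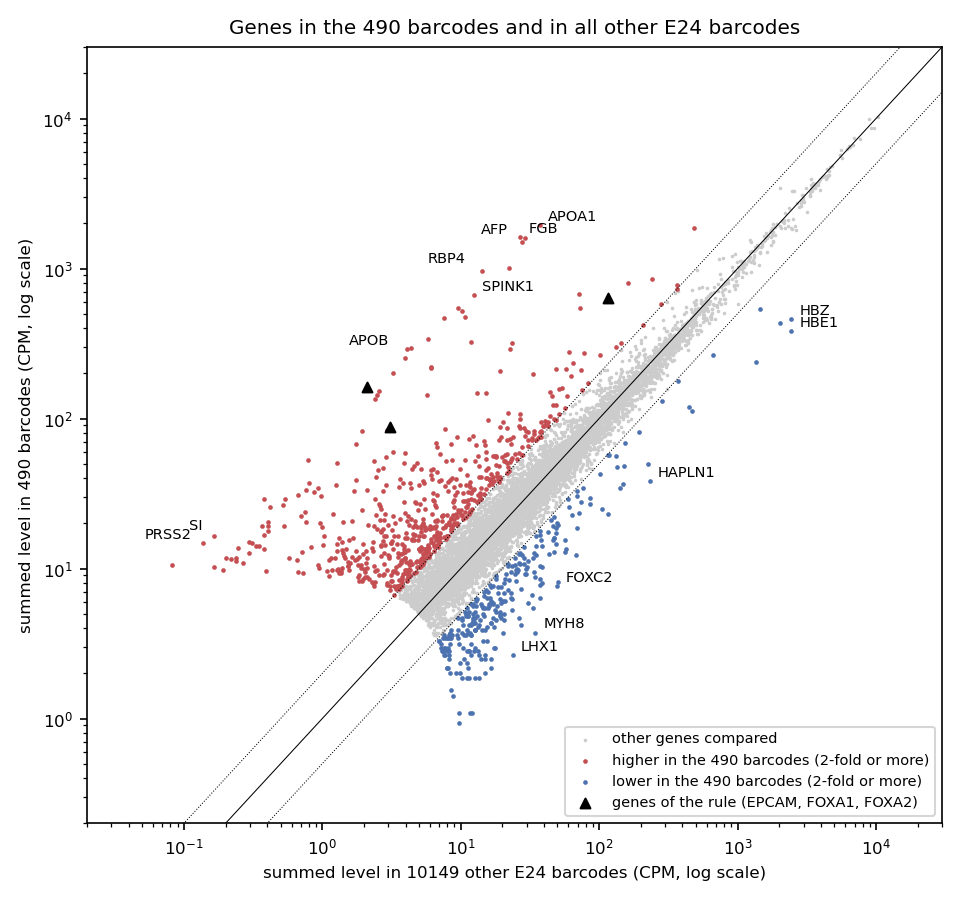
Summed level of each compared gene in the 490 barcodes (vertical axis) against the 10149 other E24 barcodes (horizontal axis), both in CPM on log scales; red and blue points are genes 2-fold or more higher or lower, black triangles the genes of the rule, the solid line equality and the dotted lines 2-fold. The named plasma protein genes lie far above the line, and HBZ and HBE1 below it.

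The lowest genes belonged to other tissues of the trunk. MYH8, a muscle myosin, was at 3.74 CPM in the 490 barcodes and 34.5 CPM in the others, 9.23-fold lower (6.19 to 14.4). LHX1, a factor of the nephric duct and intermediate mesoderm, was at 2.65 CPM and 23.7 CPM, 8.94-fold lower (5.57 to 15.4). HAPLN1, a linker protein of the matrix, was at 38.5 CPM and 232 CPM, 6.03-fold lower (5.32 to 6.86). TBX6 and FOXC2 of the paraxial mesoderm, PAX8 of the kidney lineage, the receptor APLNR and VMO1 were each over 6-fold lower. The embryonic globins HBZ and HBE1 were 5.32-fold and 6.34-fold lower. A barcode of the 490 lay in the erythroid cluster 11, and it held 2640 of the 2952 HBZ UMIs and 2000 of the 2471 HBE1 UMIs. Without it HBZ was at 48.9 CPM, against 2450 CPM in the other E24 barcodes, and HBE1 at 73.8 CPM, against 2441 CPM. In endothelial barcodes the same genes were at 62.9 and 88.8 CPM.

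Among 18 genes of the definitive endoderm and gut tube, 11 could be compared and 9 were higher, with a median log2 ratio of 3.18, against 0.02 over all genes compared. HNF4A, a nuclear receptor of liver and gut epithelium, was at 26.5 CPM in the 490 barcodes and 0.52 CPM in the others. Of its 170 UMIs in the 490, 121 lay in 28 barcodes of cluster 23, and in the 296 barcodes of cluster 20 it was at 12.2 CPM. FOXA3, the third FOXA factor and not part of the rule, was at 36.2 CPM and 2.88 CPM, 12.5-fold higher (10.5 to 14.9). GATA4, a zinc finger factor of the foregut and heart, was 6.68-fold higher (5.33 to 8.34). SOX17, a factor of early endoderm and of endothelium, was at 5.14 CPM and 4.69 CPM. It was found in 3.88% of the 490 barcodes and in 54.1% of the endothelial barcodes. CDH1, the epithelial cadherin, had 5 UMIs in the 490 barcodes and 27 in the others, too few to be compared.

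The lists of the gut regions differed among themselves. Of 18 hepatic genes 17 were compared and 15 were higher (median log2 ratio 5.78), and all 9 compared of 12 yolk sac endoderm genes were higher (median 5.79). Without cluster 23 these medians were 2.78 and 3.60. The lists share AFP, TTR, APOA1, RBP4 and FGB and are not separate evidence. Of 20 midgut and hindgut genes 18 were compared, 8 were higher and 1, CDX1, lower (median log2 ratio 0.82). CDX2 was at 211 CPM in the 490 barcodes and 74.5 CPM in the others, 2.83-fold higher (2.67 to 3.00). The calcium-dependent adhesion protein CDH17 and the microvillus protein VIL1 were 40.7-fold and 50.9-fold higher, at 14.2 and 9.82 CPM in the 490 barcodes. Of 7 compared pancreatic and duodenal genes 5 were higher, among them RFX6 at 30.9 CPM and 0.67 CPM. The others were ONECUT1, NKX2-2, NKX6-2 and NKX6-1. The NKX genes are also on the floor plate list, and NKX6-1 was far higher in cluster 18 than in cluster 20, as given below. PDX1, the factor that defines the pancreatic and duodenal endoderm, had 1 UMI in the 490 barcodes and none in the others. Of 7 compared foregut and pharynx genes 1 (ISL1) was higher and 3 lower, EYA1 and IRX3 among them, and NKX2-1, the factor of thyroid and lung, had no UMI in the 490 barcodes.

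Epithelial junction genes were the largest list that lay on 1 side. Of 26 compared, 19 were higher and none lower, with a median log2 ratio of 2.13. ELF3 and CLDN6 among the higher ones were also counted in the gut tube list. The tight junction protein CLDN3 was at 68.3 CPM in the 490 barcodes and 6.65 CPM in the others. ESRP1, a splicing factor of epithelial cells, was 5.52-fold higher (4.76 to 6.39), and GRHL2, which controls junction genes, 4.64-fold higher (3.70 to 5.78). Among 4 compared keratins 1, KRT18, was called higher, at 774 CPM and 366 CPM. Of 15 compared basement membrane genes 1, LAMB1, was higher, a share near the 6.09% of all genes compared. The secretory list had 5 of 11 compared genes higher, with AGR3, a protein of the disulfide isomerase family, at 82.0 CPM and 1.93 CPM. The uptake and transport list had 12 of 21 compared genes higher and 1 lower. MTTP, which loads lipid onto apolipoprotein B, was among the higher ones, at 144 CPM and 5.72 CPM. APOB, RBP4, TTR, APOA1, APOC1 and LRP2, also higher, were already counted in the hepatic or yolk sac list.

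Among the hedgehog genes both called higher were ligands. IHH, the hedgehog ligand of the gut epithelium, was at 19.3 CPM in the 490 barcodes and 0.37 CPM in the others, 52.6-fold higher (36.6 to 77.2). SHH was at 11.7 CPM and 1.16 CPM, 10.1-fold higher (7.49 to 13.6). Of the 11 hedgehog genes compared, IHH and SHH were higher, and the transducer GLI2 and the co-receptors GAS1 and BOC lower. The target and receptor gene PTCH1 was at 85.0 CPM and 59.1 CPM, and the target GLI1 at 5.46 CPM and 5.66 CPM. Of 20 compared WNT genes 3 were higher (the receptors FZD5 and LGR4 and the antagonist SFRP5) and 5 lower (WNT2, DKK1, FRZB, SFRP2 and SFRP1). FZD5 was 19.3-fold higher (15.7 to 23.6). Of 18 compared genes of the BMP, TGFB and nodal pathways, BMP2, BMPR1B and SMAD7 were higher and FST, GREM1, BMP5 and TGFB1 lower. Of 15 compared FGF genes, the receptors FGFR4 and FGFR3 were higher and 5 genes lower, FGF3, FGF18, FGF17, SPRY4 and ETV4. FGFR4 was 6.53-fold higher (5.27 to 8.05). In the retinoic acid list RBP4 was higher and 4 of 12 compared genes were lower, among them ALDH1A2, the enzyme that makes retinoic acid, at 6.08 CPM and 20.9 CPM. Of 11 compared NOTCH genes DLL1 and DLL3 were lower and none higher.

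The mesenchyme, endothelium and erythroid lists were lower in every gene compared. All 10 compared of 12 mesenchyme genes were lower (median log2 ratio -2.06), summed over the list 356 CPM in the 490 barcodes and 1445 CPM in the others. All 6 compared endothelium genes and all 6 compared erythroid genes were lower as well, and so were 4 of 6 compared nephric duct genes, with 1 higher. None of 24 S and G2/M phase genes was called, though each lay on the lower side. Their log2 ratios ran from -0.83 to -0.26, with a median of -0.50. Of 20 compared genes of glycolysis and hypoxia VEGFA alone was higher, a share near the 6.09% of all genes compared. Of 15 compared genes of dissociation stress NR4A1 and EGR1 were higher.

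The lists of the midline and of the other ectoderm were not lower as a whole. Of 9 compared notochord genes 2 were higher (SHH and FOXJ1, a factor of ciliated cells) and none lower, with a median log2 ratio of 0.71. Of 6 compared neural tube genes SOX21 was higher and PAX6 lower (median 0.02), and neither of 2 compared surface ectoderm genes was called. Of 8 compared floor plate genes 6 were higher and 1, SULF1, lower, with a median log2 ratio of 1.53. Taken over the barcodes of clusters 20 and 23 only, the same median was -1.53. HCRT was at 308 CPM in the 90 barcodes of cluster 18, against 0.25 CPM in the 296 barcodes of cluster 20. NKX6-1, a ventral neural factor, was at 129 CPM and 1.25 CPM, and SOX2 at 656 CPM and 58.5 CPM. HNF4A, GATA4 and IHH had no UMI in the barcodes of cluster 18, against 12.2, 26.2 and 27.5 CPM in those of cluster 20. Within cluster 18 the 105 barcodes outside the rule had the same genes at like levels, with HCRT at 224 CPM, NKX6-1 at 111 CPM and SOX2 at 696 CPM. EPCAM, a gene of the rule, was at 180 CPM in the 90 inside and 63.4 CPM in those 105.

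The neighbouring sets of barcodes, formed by the same 6 genes, showed how far the rule separated them. The notochord gene CHRD was at 5.50 CPM in the 296 barcodes of cluster 20 and at 317 CPM in the 77 barcodes with FOXA1 or FOXA2 and T. NOTO, another notochord gene, had no UMI in the 296 and was at 101 CPM in the 77. TP63, a factor of the epidermis, was at 1.75 CPM in the 296 and at 40.7 CPM in the 727 barcodes with EPCAM and TFAP2A. CLDN6 was at 99.7 CPM in the 296 and at 79.4 CPM in the 727. The 106 barcodes with FOXA1 or FOXA2 and without EPCAM had HCRT at 146 CPM and SOX2 at 497 CPM. Both genes were higher in the 90 barcodes of cluster 18 that met the rule, at the levels given above, so the rule did not separate these.

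**Figure D3:**
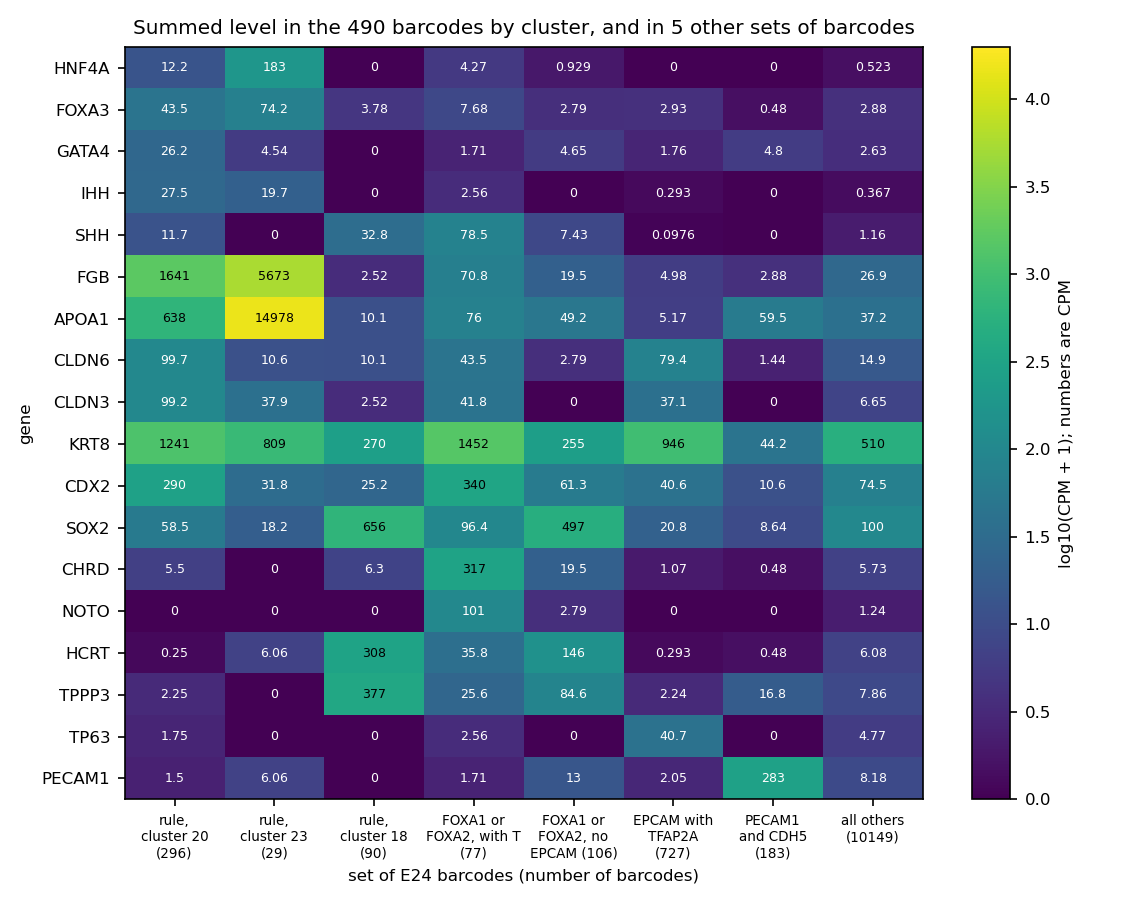
Summed level of 18 genes (rows) in the barcodes that met the rule and lay in clusters 20, 23 and 18, in 4 neighbouring sets formed by marker genes and in all 10149 other E24 barcodes (columns, with the number of barcodes); colour is log10(CPM + 1) and the printed numbers are CPM. IHH, HNF4A and GATA4 are at 0 in cluster 18, where HCRT and TPPP3 are at 308 and 377 CPM.

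Cluster 20 also held 134 barcodes that did not meet the rule, and 32.8% of these had a UMI of T. HOXA10 was at 138 CPM in the 296 that met the rule and 358 CPM in the 134, and CDX2 at 290 CPM and 398 CPM. FGB was at 1641 CPM in the 296 and 1115 CPM in the 134, and ONECUT1 at 82.2 CPM and 30.8 CPM. A set formed only by KYNU and FGB held 203 barcodes, of which 142 were among the 490.

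Clustering the 490 barcodes alone gave 12 groups of 20 to 65 barcodes, numbered 0 to 11. Genes that lead a group were used to form it, so their levels are descriptions. A list marker was counted as met or high by CPM + 5, at 2-fold or more over the other E24 barcodes. It also had to be found in at least 5% of the group's barcodes. The borders of some groups moved with the resolution of the clustering: at a lower one groups 1 and 3 lay mostly in 1 cluster, groups 0 and 2 in another, and group 11 was split, with 9 of its 20 barcodes in the cluster of group 10. Group 5 (28 barcodes, all in cluster 23) met 15 of 18 hepatic markers (83.3%), with 8 of its 10 leading genes on that list. AFP was at 12648 CPM, APOA1 at 15290 CPM, AHSG at 4616 CPM and HNF4A at 188 CPM. ALB, the albumin of the later liver, was at 214 CPM, 41.7% of the ALB UMIs of the 490 lying in 1 barcode. HHEX, which the early liver bud needs, and PROX1, a hepatoblast factor, had 1 UMI each. The group also met 10 of 12 yolk sac endoderm markers (83.3%), with 3 of its leading genes on that list. CUBN and LRP2 were among the markers met, and CER1 was at 0. These shares do not tell the lists apart, so the group is called hepatic- or yolk-sac-like. It was the deepest group, with a median of 20055 UMIs, and 16 of its 28 barcodes (57.1%) were in the top Scrublet class.

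Groups 9, 10 and 11 carried most of the gut tube list, 12, 13 and 12 of its 18 markers being high. These counts include EPCAM, FOXA1 and FOXA2, which the rule itself chose. In group 9 (49 barcodes, led besides globins by ONECUT1, RIPPLY3, SFRP5 and NMU) ONECUT1, a factor of the liver and pancreas primordia, was at 419 CPM, and it was at most 67.4 CPM in any other group. HHEX was at 63.9 CPM, SOX2 at 152 CPM and FOXA2 at 185 CPM, while CDX2 was at 59.1 CPM. The globins came from the barcode of cluster 11 described above, without which HBZ in group 9 was at 62.3 CPM. In group 10 (50 barcodes, led by LGALS3, SI, FILIP1L and RFX6) SI was at 98.3 CPM, RFX6 at 138 CPM and GATA6 at 146 CPM. CDX2 was at 366 CPM there and SOX2 had no UMI. AFP was at 1315 CPM in group 10 and AHSG at 1.72 CPM, against 12648 and 4616 CPM in group 5. Group 11 (20 barcodes, led by PRSS2, ANGPT2, NPPB and TAGLN) had KRT8 at 3169 CPM, RFX6 at 122 CPM and CDX2 at 358 CPM.

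Group 8 (43 barcodes, led by PCP4, OSR2, DIO2 and BRINP3) had the highest CDX2 of the 12 groups, 488 CPM, and no UMI of GATA4. FGB was at 4872 CPM, SPINK1 at 2440 CPM and AFP at 557 CPM. VIM, the intermediate filament usual in mesenchyme, was at 4342 CPM in group 8, while its summed mesenchyme list was at 35.6 CPM with 7 of the 12 genes at 0, PDGFRA, COL1A2 and PRRX1 among them.

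Groups 3 and 6 lay wholly in cluster 20 and shared ISL1, at 421 CPM in group 3 and 736 CPM in group 6, against at most 69.0 CPM in the other groups. Group 3 (29 barcodes, led by GDNF, ISL1 and HOXA10) had CDX2 at 272 CPM. Group 6 (30 barcodes, led by S100P, AGR3, CLDN8 and SLC39A2) had BMP4 at 405 CPM, GATA3 at 318 CPM and SHH at 71.1 CPM, and it had no UMI of FOXA2, so that all 30 entered by FOXA1. Of 11 surface ectoderm markers 6 were high in group 6, namely TFAP2C, TP63, GRHL3, GATA3, KRT15 and PERP. TP63 and KRT15 were each found in 10% of its barcodes and TFAP2C in 16.7%, where 3 counts are worth 9.27 CPM. PERP, GATA3 and GRHL3 were found in 90%, 93.3% and 36.7% of group 6, and in 100%, 82.8% and 20.7% of group 3. TFAP2A of that list was excluded by the rule. Of 18 gut tube markers 5 were high, EPCAM and FOXA1 of the rule among them, and HNF4A and SOX17 had no UMI. SHH in group 6 stood beside IHH at 49.4 CPM. FOS, EGR1, JUNB and NR4A1, which respond within minutes to tissue handling, were at 930, 491, 223 and 207 CPM in group 6 and at most 116, 66.8, 12.8 and 12.6 CPM in the other groups. Their part in the level of the other genes was not tested.

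Group 1 (59 barcodes, led by FGF17, HOXA7, CDX4 and HOXC8) joined 38 barcodes of cluster 20 with 15 of cluster 12. CDX2 was at 454 CPM, CDX4 at 278 CPM and SOX2 at 225 CPM. The barcodes of these clusters differed in their epithelial genes. CLDN6 was at 62.5 CPM in the 38 barcodes of cluster 20 and CLDN7 at 36.9 CPM, and neither had a UMI in the 15 of cluster 12. SOX2 was at 151 CPM in the 38 barcodes and 464 CPM in the 15, and NKX1-2, a gene of axial progenitors, had 6 UMIs in the 15 and none in the 38.

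**Figure D4:**
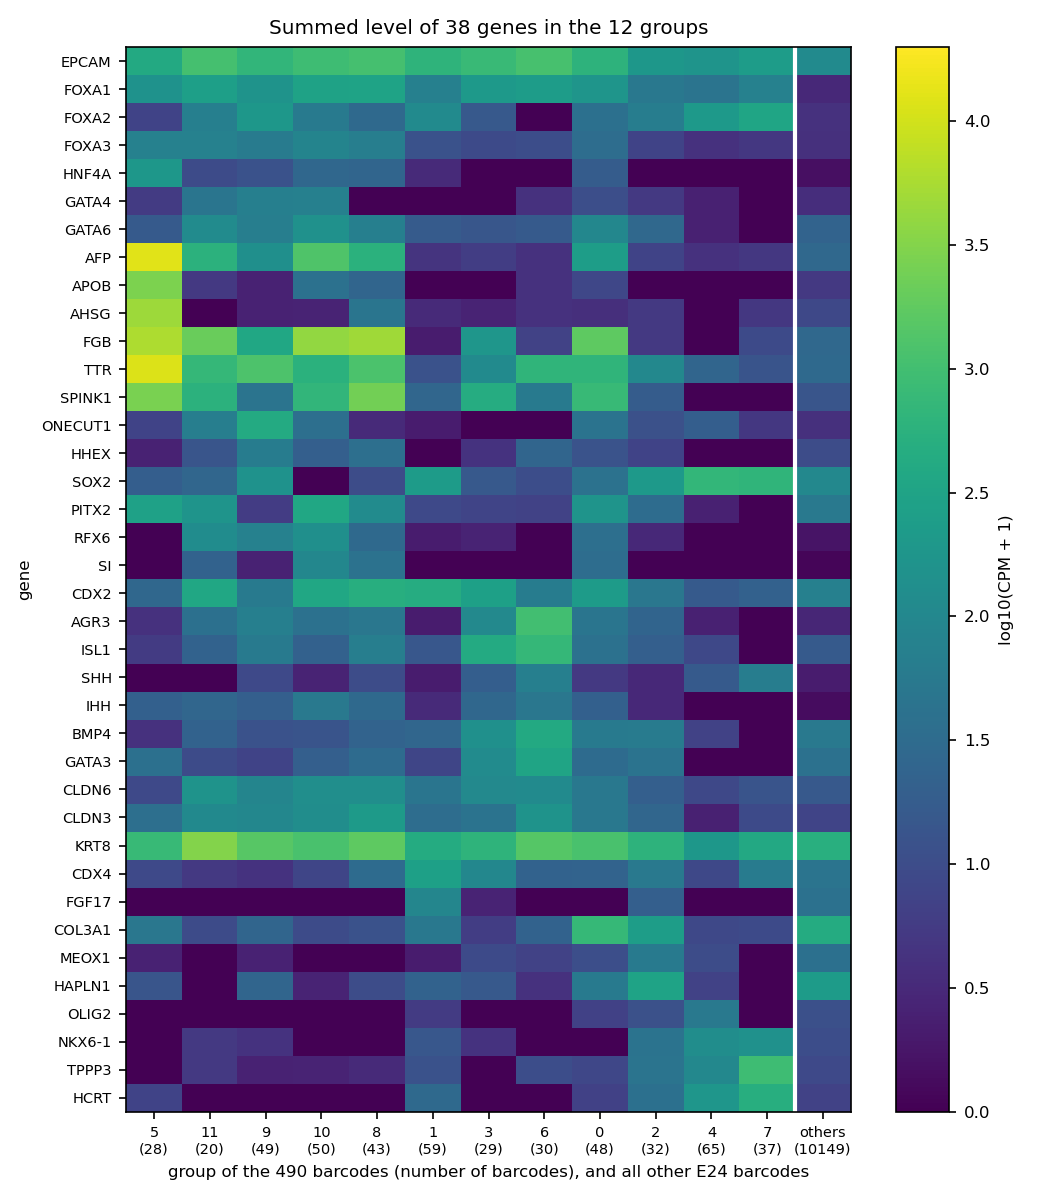
Summed level of 38 genes (rows) in the 12 groups of the 490 barcodes and, right of the white line, in all other E24 barcodes; colour is log10(CPM + 1) and the number of barcodes stands under each column. AFP, APOB and AHSG peak in group 5, ONECUT1 in group 9, ISL1 in groups 3 and 6, and HCRT and TPPP3 in group 7.

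HOX genes, which were among the genes clustered, differed between the groups. Summed over paralogue numbers 6 to 9, each was under 55 CPM in groups 5, 9, 10 and 11, where no paralogue number reached 90 CPM. In group 8 paralogue number 9 was at 249 CPM and number 10 at 40.1 CPM. In group 1 number 9 reached 895 CPM and number 10 was at 355 CPM. In group 3 number 10 was at 481 CPM, number 11 at 45.1 CPM and number 13 at 56.8 CPM. In group 6 number 10 was at 334 CPM, number 11 at 58.7 CPM and number 13 at 80.3 CPM. Paralogue number 13 had no UMI in groups 4, 5 and 7 to 11 and was at most 6.38 CPM in groups 0, 1 and 2. HOXD13 was at 36.8 CPM in group 3 and 68.0 CPM in group 6, and HOXA13 had 12 and 4 UMIs. Against all other E24 barcodes the 490 had HOXA10 and HOXD11 higher and HOXC5, HOXD1, HOXD8 and HOXD4 lower among 30 compared HOX genes. The share of higher HOX genes was near the 6.09% of all genes compared. SOX2 and CDX2 were found together in 54 of the 296 barcodes of cluster 20, SOX2 alone in 20, CDX2 alone in 177 and neither in 45.

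**Figure D5:**
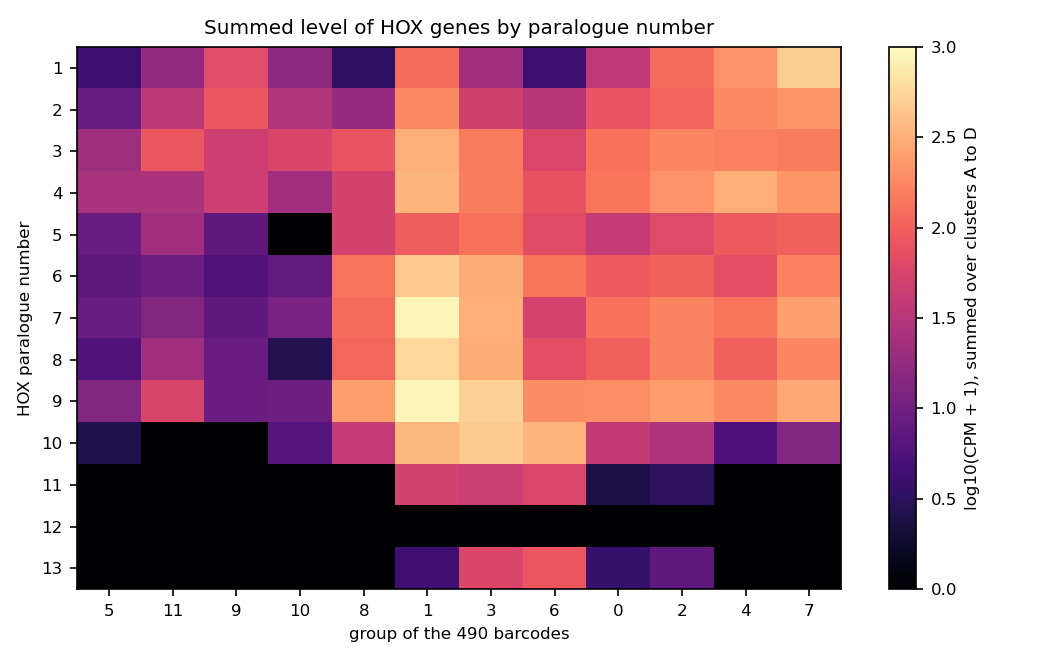
Summed level of HOX genes by paralogue number (rows, 1 to 13) in the 12 groups of the 490 barcodes (columns); colour is log10(CPM + 1), summed over the HOX clusters A to D. Groups 5, 11, 9 and 10 are dark below the lowest numbers, and number 13 is bright in groups 3 and 6 only, at 56.8 and 80.3 CPM.

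Groups 0 and 2 carried genes of other tissues beside EPCAM and FOXA1. Group 0 (48 barcodes, 40 of them in cluster 20) was led by COL3A1, DCN and COL1A1, with COL3A1 at 754 CPM, and all 12 mesenchyme genes were detected, summed 1796 CPM, against 16.9 to 853 CPM in the other groups. It also had FGB at 1735 CPM and 11 of the 18 gut tube markers high, EPCAM, FOXA1 and FOXA2 of the rule among them. Group 2 (32 barcodes from 13 clusters of the whole library, none from cluster 20) was led by HAPLN1, RAMP2, MEOX1 and APLNR, with HNF4A at 0. In these groups 66.7% and 65.6% of the barcodes were in the top Scrublet class, against 0 to 57.1% in the other groups. Whether these are doublets was not tested. Both stay without a name.

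Groups 4 and 7 lay in clusters 18 and 19. Group 7 (37 barcodes, led by TPPP3, LECT1, HCRT, EVA1C and SEMA3E) had 12 of 14 floor plate markers high, counting FOXA2 of the rule. It is called floor-plate-like. SPON1, an adhesion protein secreted by the floor plate, was at 292 CPM and SHH at 64.9 CPM. FOXA2, at 332 CPM, is a gene of the rule and does not count towards the name. NTN1 had no UMI in it, and was at 0.17 CPM in the other E24 barcodes as a whole. Group 4 (65 barcodes, with FABP7 and TTYH1 among its leading genes) had NKX6-1 at 128 CPM and OLIG2, a factor of motor neuron progenitors, at 53.5 CPM. Both had a median of 1 EPCAM UMI per barcode, against 6 to 14 in the groups with barcodes of cluster 20 or 23. HNF4A had no UMI in either.

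At later stages the rule found few barcodes: 3 of 5028 at E28, 1 of 6661 at E31 and 6 of 5298 at E37. The dissections differ between stages, so these counts do not follow 1 tissue over time. All 6 barcodes at E37 carried AFP (846 UMIs together), APOA2 (953 UMIs), ALB (138 UMIs) and RBP4 (488 UMIs), while none of them carried SHH, CDX2 or SOX2. None of the 4 barcodes at E28 and E31 had a UMI of AFP, APOA2 or ALB.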

How the data were processed

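Single-cell RNA was captured with a Chromium Single Cell 3ʼ kit, per the labels' protocols, which name both v2 and v3 chemistry. The authors deposited a matrix of UMI counts per gene and barcode for each library. The submitters' processing notes name Cell Ranger 2.1.0, and as to the genome build, it is not given in the labels. The 4 libraries held 10639, 5028, 6661 and 5298 barcodes, and E24 held 115332663 UMIs with a median of 9990 per barcode. A gene table row is named only by a LOC identifier for 9499 of 26223 genes, and no mitochondrial gene is named.

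Counts were summed over barcodes and scaled to CPM. Ratios have exact conditional binomial 95% intervals, shares exact binomial ones, and a sum of 0 was bounded by 3 counts. A gene was compared at a mean of 5 CPM or more and called at 2-fold or more with its interval on 1 side of equality. With 1 library there is no replicate, no test and no p. Named genes were the 20 highest and 10 lowest ratios by the interval bound nearest equality among genes with 50 or more UMIs in the higher set, genes of the lists and up to 8 leading genes per group; ribosomal, LOC and rule genes were left out. Leading genes had the highest ratio of CPM + 5 to the other barcodes clustered, in at least 20% of the cells.

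Barcodes were clustered with scanpy 1.11.5 and the Leiden method of igraph 0.11.9 (2000 variable genes, genes of the rule left out, resolution 1). The library was clustered on 30 components and the 490 barcodes on 15. Scrublet called no doublet in E24, so the top scores at a rate of 0.8% for each 1000 barcodes are reported and were left out in an alternative. Shares were also taken after thinning barcodes to 3000 UMIs. The ratio script was checked on simulated counts. The members, lists and names were chosen with earlier results of these data known. Results for some of the named genes are not reported here. Alternatives were a stricter rule, a rule after thinning, fewer deep barcodes, other scalings, filters and comparison sets.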

Additional observations from a re-analysis of the deposited data

How the results depend on the processing

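No paired analysis was possible because each stage is 1 library. Asking for 2 or more UMIs of EPCAM and of the FOXA genes left 287 barcodes, and applying the rule after thinning left 241. The 622 higher and 280 lower genes became 229 and 77 at a mean of 20 CPM or more, where 5748 genes were compared, and 1768 and 698 without a filter, where 21541 genes were compared and the median log2 ratio of all genes was 0.23. Over clusters 20 and 23 only, an alternative chosen after seeing the data, 459 genes were lower. There the floor plate list had a median log2 ratio of -1.53. Without cluster 23, also chosen after seeing the data, AHSG was at -1.63 and APOC3 at -1.90 on the log2 scale. Under the other alternatives no named gene changed sign, and the list medians that did, for neural tube and epithelial basement membrane genes and without cluster 23 for HOX genes, began under 0.5 in size. Against the other barcodes with EPCAM, 25 of the 30 named ratios moved by over 1.5 times, and after the thinned rule 28 did. Clustering the 490 at lower and higher resolution gave 10 and 18 groups in place of 12, and group 5 kept its 28 barcodes in both. At the lower resolution 59 barcodes of group 1 and 28 of group 3 shared a cluster of 101, and 37 of group 0 and 23 of group 2 a cluster of 60. Group 11 kept at most 9 of its 20 barcodes in 1 cluster at the lower resolution and 11 at the higher. Depth limits genes of a few UMIs: in the smallest group, 3 counts are worth 12.6 CPM.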
